A study of Mus musculus with 2 samples.

Results

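CD4 single-positive T cells are the helper and regulatory T cells of the adaptive immune system, and the ones described here came from mouse hearts 7 days after a myocardial infarction made at postnatal day P2. They were picked by transcript counts in single cells. A cell barcode was a member if it had at least 1000 genes, at most 10% mitochondrial UMIs (a UMI stands for 1 captured transcript), at least 3 UMIs of Cd3d, Cd3e and Cd3g together, at least 1 UMI of Cd4 and none of Cd8a or Cd8b1. A member also had fewer than 2 UMIs of Rag1, Dntt and Arpp21 together, fewer than 2 of Trdc, fewer than 2 of Csf1r and fewer than 3 of Cd79a. The rule found 261 members, 89 in the wild-type (WT) library and 172 in the Lyve1 KO library, of 10998 barcodes in all and of 6149 that met the gene and mitochondrial limits.

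Each of the 2 groups is 1 library of live CD45+ cells sorted from hearts of mice aged 9 days, one WT and one Lyve1 KO, each pooled from several hearts. Both groups carried the infarct, so no uninjured heart enters the comparison. The knockout is of Lyve1, a hyaluronan receptor of lymphatic endothelium and of some tissue macrophages, and is not restricted to T cells. The libraries held 5713 and 5285 barcodes with 67968938 and 61555917 UMIs, WT first here and throughout. With 1 library per genotype there is no replicate spread, no test between genotypes can be made, and every interval below covers counting error only, at 95%. Genotype, pool and library cannot be told apart, and in such counts more cells of a class cannot be told apart from fewer cells of the other classes.

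T cells mature in the thymus, where thymocytes that carry both CD4 and CD8 lose one of them and leave for the blood as naive cells. Naive CD4 cells circulate through lymphoid organs with the help of homing receptors such as CCR7, which they keep under the control of transcription factors such as LEF1, TCF1 (Tcf7) and KLF2. On meeting antigen they become activated cells, which exchange lymph node homing receptors for costimulatory receptors and tissue chemokine receptors. Regulatory T cells, defined by the transcription factor FOXP3, restrain other immune cells and have been linked with tissue repair, including that of the heart.

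The label was set against genes that the rule did not use. Lef1 had a UMI in 81 of 89 WT and 167 of 172 KO members, and Tcf7 in 68 and 154. Cd40lg, the ligand by which helper cells activate B cells and phagocytes, had 252 UMIs in 53 WT members and 350 UMIs in 109 KO members, a summed level of 221 CPM (194 to 250) and 144 CPM (129 to 160), where CPM is a gene's UMIs per 1000000 UMIs of the same cells. In CD8 single-positive cells, taken with the same limits but with Cd8a or Cd8b1 and no Cd4, Cd40lg had only 4 UMIs in each library. Zbtb7b, which encodes the factor that fixes the CD4 fate, stood at 37.7 and 43.6 CPM in CD4 cells, with 0 and 5 UMIs in CD8 cells.

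Most members were well inside the rule. The median member had 11521 UMIs in the WT and 13107.5 in the KO library, and 25 and 28 UMIs of the CD3 genes. There were 13 WT and 35 KO members with a single Cd4 UMI, and 8 WT members but 1 KO member with exactly 3 CD3 UMIs. Those 8 WT members were shallow, with a median of 2325 UMIs. Just outside the rule, 77 WT and 91 KO barcodes failed only for want of a Cd4 UMI, 5 and 18 failed only by a single Cd8a or Cd8b1 UMI, and 6 and 2 by having 2 CD3 UMIs. The libraries shared 9 barcode sequences, of which 1 belonged to a WT member and 0 to a KO member.

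CD4 cells made up a larger share of the KO library. They were 2.63% of the WT barcodes within the limits (interval 2.12 to 3.23) and 6.21% of the KO ones (5.34 to 7.18), so that the libraries stood 3.58 percentage points apart (2.55 to 4.66). Among male cells, told by Y-linked transcripts, the share was 2.13% and 7.23%. Among female cells, told by Xist, it was 2.71% and 4.96%. CD4 cells were higher in the KO library in both sexes, with a larger difference among male cells (5.09 points) than among female cells (2.24 points), a contrast that was not tested.

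The CD4 share was not alone in being higher in the KO library. CD8 single-positive cells were 1.60% of WT and 4.19% of KO barcodes, and all CD3-positive T cells were 8.08% and 16.3%. CD3-negative barcodes with at least 3 UMIs of Cd79a, a B cell receptor chain, went from 9.73% to 15.2%. CD3-negative barcodes with at least 2 UMIs of Csf1r, the macrophage growth factor receptor, were lower in the KO library, 47.6% against 59.3%. Measured against CD3-positive T cells alone, CD4 cells were 32.6% of the WT and 38.1% of the KO cells, and that difference of 5.45 points had an interval of -1.78 to 12.4 that spans 0. Without the members that had at least 3 UMIs of a macrophage list it was 7.72 points, with an interval of 0.58 to 14.6. That alternative took these members out of the CD4 count but kept all 273 and 452 CD3-positive cells in the total. It therefore cannot show whether the interval would still span 0.

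Each member was placed in a state by named genes. Regulatory cells had at least 1 Foxp3 UMI. Activated cells had no Foxp3 and UMIs of at least 2 of 8 genes, Icos, Tnfrsf4, Pdcd1, Cxcr3, Cxcr6, S100a4, Maf and Ifng. Naive cells had no Foxp3, fewer than 2 of those 8 genes and at least 1 UMI of lymph node homing genes that include Ccr7. These genes describe the states and are not findings about them. The WT library held 46 naive, 15 regulatory and 27 activated cells with 1 cell in no state, and the KO library 125 naive, 25 regulatory and 22 activated cells.

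The higher CD4 share of the KO library lay mostly in naive cells. Naive CD4 cells were 1.36% of the WT barcodes within the limits and 4.51% of the KO ones, a difference of 3.15 points (2.31 to 4.06). Regulatory cells were 0.444% and 0.903%, a difference of 0.459 points (0.0505 to 0.92). Activated cells were 0.799% and 0.795%, so the libraries differed by less than counting error, with an interval of -0.455 to 0.472 points. Of the 3.58 points by which the libraries differed in CD4 cells, 3.15 lay in naive and 0.459 in regulatory cells.

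As a share of CD4 cells, the naive state was 51.7% in the WT (40.8 to 62.4) and 72.7% in the KO library (65.4 to 79.2). The activated state was 30.3% (21.0 to 41.0) and 12.8% (8.19 to 18.7), a difference of -17.5 points (-28.6 to -7.19). The regulatory state was 16.9% and 14.5%, a difference of -2.32 points whose interval of -12.5 to 6.46 spans 0. Shares that rest on finding a transcript depend on depth, so each cell was also thinned at random to 4900 UMIs, which left out 18 WT and 8 KO members below that depth. Of the WT members left out 9 were activated and 8 naive, and of the KO ones 0 and 6. At equal depth 60.6% and 75% of cells were naive, which differed by 14.4 points (1.70 to 27.5). Activated cells were then 22.5% and 12.8%, and their difference of -9.73 points had an interval of -21.5 to 0.385 that just spans 0.

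**Figure D1:**
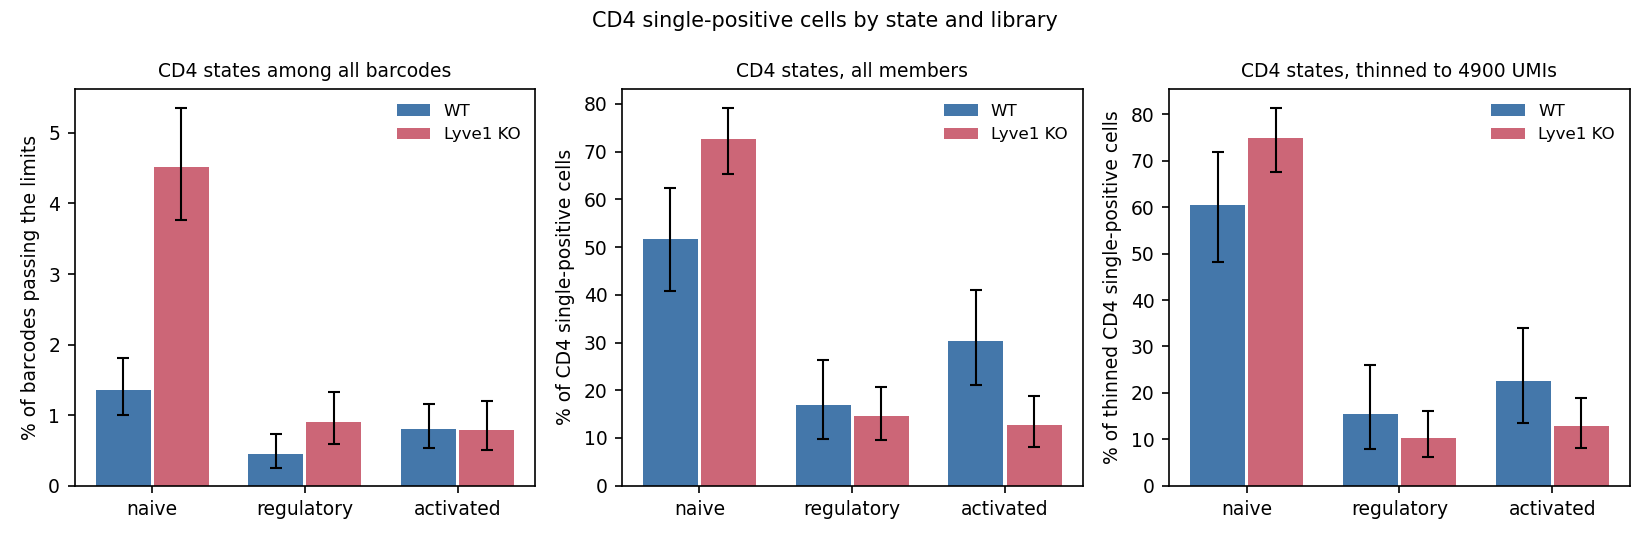
Shares of the naive, regulatory and activated states in the WT and Lyve1 KO libraries, as percent of all barcodes within the limits, as percent of CD4 single-positive cells, and as percent of CD4 cells thinned to 4900 UMIs. Bars are shares of 1 library each and whiskers are exact 95% binomial intervals for counting error, and the naive bars stand apart in the first panel (1.36% and 4.51%) while the activated bars are level (0.799% and 0.795%).

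The activated share was lower in the KO library in each sex, but among female cells the difference lay within counting error. Of male members, 32.5% of 40 in the WT and 16.2% of 99 in the KO library were activated, a difference of -16.3 points (-32.9 to -1.30). Of female members it was 24% of 25 and 11.1% of 45, a difference of -12.9 points whose interval of -33.3 to 4.71 spans 0. The naive share was 50% and 70.7% of male cells, 20.7 points apart (3.06 to 37.6). It was 56% and 66.7% of female cells, and that interval of -11.99 to 33.1 spans 0. WT activated cells were the members with the most macrophage transcripts. The 12 genes of a macrophage list summed to 349 CPM in WT activated cells and 19.2 CPM in KO activated cells, led in the WT by Apoe, a lipid carrier, at 123 CPM in 9 of 27 cells. Without the members that had at least 3 UMIs of the macrophage list (8 WT and 3 KO), the activated share was 27.2% and 13.0%. The dendritic cell list summed to 177 and 13.7 CPM in activated cells, led by Cd74.

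Naive cells of both libraries carried the genes of the naive list, which summed to 11674 and 12091 CPM. Klf2 was lower in the WT, at 1342 CPM (1243 to 1447) against 1849 CPM (1783 to 1917) in the KO library, a log2 ratio of 0.46 that is short of the fold. Lef1 stood at 1173 and 1266 CPM, Tcf7 at 1096 and 1030 CPM, and Bach2, a repressor of effector genes, at 695 and 656 CPM. Dapl1, a gene of naive T cells, was at 374 and 399 CPM, Igfbp4 at 619 and 598 CPM and Ly6c1, a surface marker of quiescent CD4 cells, at 180 and 225 CPM. Foxp3, Gzmb, Ccr2, Cxcr3 and Ifng had no UMI in any naive cell of either library. Cd44, the hyaluronan receptor that rises on antigen-experienced T cells, had 9 and 23 UMIs in naive cells, or 17.8 and 14.5 CPM.

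Thymocyte-like cells of the same libraries were those with at least 2 UMIs of Rag1, Dntt and Arpp21. CD4 members of all states together differed from them in several genes outside the rule. Among all members Rag2, which helps rearrange the receptor genes, Ptcra, which encodes the pre-T receptor chain, and Endou had no UMI in either library, against 54 and 31 UMIs of Rag2 in 47 and 39 thymocyte-like cells. Not all 12 genes of that thymocyte list were absent. Tcf12 was at 202 and 193 CPM, in 69 of 89 WT and 138 of 172 KO members. The list summed to 306 and 291 CPM, and 51 and 108 members had at least 3 UMIs of it. Cd24a, a surface marker lost as T cells mature, was at 2.63 CPM (0.542 to 7.68) in WT and 19.3 CPM (14.2 to 25.7) in KO members, against 524 and 813 CPM in thymocyte-like cells. S1pr1, the receptor that lets mature T cells leave the thymus, was at 296 and 290 CPM in members and 9.13 and 5.64 CPM in thymocyte-like cells. H2-K1, an MHC class I heavy chain that is raised late in maturation, was at 2254 and 2503 CPM against 134 and 141 CPM. Klf2, which switches S1pr1 on, was at 936 and 1608 CPM against 33.5 and 45.1 CPM.

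**Figure D2:**
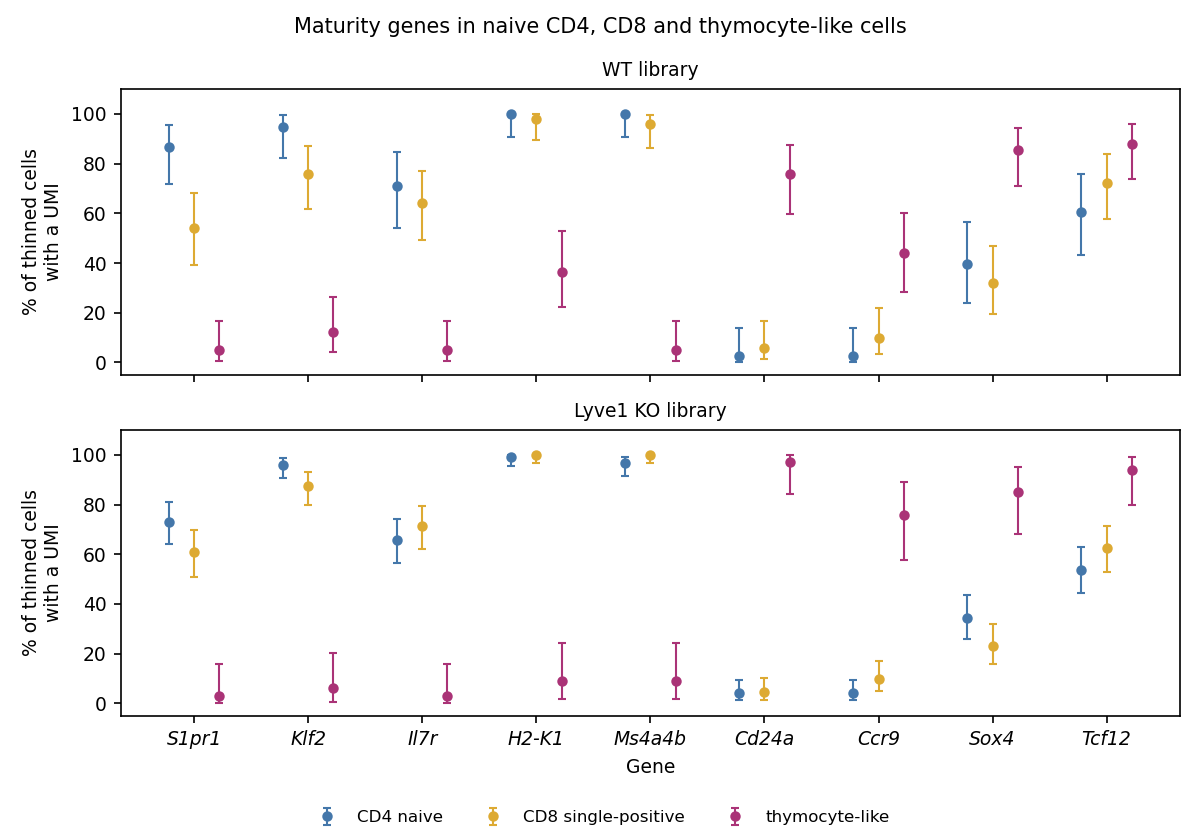
Percent of cells with a UMI of each of 9 genes of T cell maturity, in naive CD4 (blue), CD8 single-positive (yellow) and thymocyte-like cells (purple) thinned to 4900 UMIs, with the WT library above and the Lyve1 KO library below. Whiskers are exact 95% binomial intervals for counting error. Cd24a was found in 75.6% and 97.0% of thymocyte-like cells, and S1pr1 in 86.8% and 73.1% of naive CD4 cells but 4.88% and 3.03% of thymocyte-like cells.

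Regulatory cells carried Foxp3 in some depth. The gene (chromosome X, 7573644 to 7595245 in GRCm38) had 175 UMIs in the 15 WT cells and 233 UMIs in the 25 KO cells, 469 and 488 CPM. CD8 cells held 1 and 2 Foxp3 UMIs, and the gene had a UMI in 1.75% and 1.52% of the deeper Csf1r-positive cells (median 20855 and 22652 UMIs). At 4900 UMIs Foxp3 was found in 15.5% and 10.4% of CD4 cells and in 0.25% of Csf1r-positive cells of either library. Of the Foxp3-positive cells, 11 of 15 and 20 of 25 also had Il2ra, the high-affinity chain of the interleukin-2 receptor. Ctla4, an inhibitory receptor, was in 14 of 15 and 22 of 25, and so was Ikzf2, which encodes Helios. These genes were not limited to Foxp3-positive cells. Without Foxp3, Il2ra was seen in 9 WT and 3 KO members, Ctla4 in 18 and 29, and Ikzf2 in 14 of each library.

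Against naive cells, regulatory cells had 381 genes that were higher by a log2 ratio of at least 1 (of CPM + 10) in both libraries, 5.81% of 6557 genes compared, and 228 that were lower, 3.48%. No test stands behind these calls. Of the 18 genes of the regulatory list, 16 had enough UMIs, and 15 of them were higher. For most of the list this follows from how cells and genes were chosen, so the count is a description only. Naive cells have no Foxp3 by rule, and Tnfrsf4 and Icos are among the 8 genes that keep a cell out of the naive state. The minimum was set on the UMIs of both states together, and of these genes only Icos, Capg and Izumo1r, the folate receptor 4 of regulatory cells, reached it in naive cells alone. The others, among them Tnfrsf18 (GITR), Tigit, Tnfrsf9 (4-1BB) and Nrp1, met it only with the UMIs of the regulatory cells. The same holds for any gene below that is scarce in naive cells. Likewise, a gene scarce in either group of a comparison met the minimum only with the other group. Gpr83 was the exception, at 24.1 and 16.8 CPM in regulatory cells and 27.7 and 22 CPM in naive cells. Itgae and Lrrc32 fell short of the minimum of 50 UMIs and 10 cells.

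The 15 genes highest over naive cells in both libraries held receptors and factors of suppressor cells beside genes of effector and tissue T cells. The former were Foxp3, Ctla4, Tigit, Il2ra, Il2rb, Tnfrsf4 and Tnfrsf9. Ctla4 was at 1340 and 1746 CPM in regulatory cells against 19.8 and 20.1 CPM in naive cells. Tnfrsf9 was at 399 and 631 CPM, with 1 and 6 UMIs in naive cells. Tigit was at 316 and 275 CPM against 3.96 and 1.89 CPM. Il2rb, the chain that passes the interleukin-2 signal on, was at 351 and 386 CPM against 5.94 and 2.51 CPM. The other 8 genes follow.

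Gzmb encodes granzyme B, a protease of cytotoxic granules. It had 175 UMIs in 6 of 15 WT and 599 UMIs in 12 of 25 KO regulatory cells and none in naive cells. Taking 3 UMIs per library as the limit that a count of 0 allows, it was at least 79.0-fold and 666-fold higher in regulatory cells. Ccr2, the receptor for the monocyte chemokine CCL2, was at 289 and 386 CPM in regulatory cells, at least 48.8-fold and 205-fold higher by the same limit. The Csf1r-positive cells carried Ccr2 at 265 and 423 CPM, while the naive cells of the same libraries had none. Frmd5 was at 263 and 321 CPM, in 4 and 11 regulatory cells.

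S100a4, S100a6, S100a11 and Anxa2, which encode calcium-binding proteins and a membrane-binding partner, made up a further set. S100a6 was at 1766 and 2872 CPM in regulatory cells against 11.9 and 25.8 CPM in naive cells. S100a11 was at 1083 and 1050 CPM against 25.7 and 34.6 CPM, and Anxa2 at 745 and 444 CPM against 3.96 and 4.40 CPM. S100a4 was at 608 and 1346 CPM with 1 and 2 UMIs in naive cells, but it is 1 of the 8 genes that keep a cell out of the naive state. AW112010, an interferon-responsive transcript, was at 1021 and 956 CPM against 33.6 and 22 CPM. These genes were not particular to regulatory cells. In activated cells S100a6 was at 530 and 1316 CPM, S100a11 at 438 and 643 CPM and Anxa2 at 173 and 186 CPM. AW112010 was at 392 and 328 CPM in activated cells. Csf1r-positive cells also carried S100a6 at 647 and 1087 CPM.

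Naive genes were lower in regulatory cells. Of the 14 genes of the naive list, 10 were lower in both libraries, where 3.48% of all genes compared were, and none higher, with medians of -1.95 and -2.06. Tcf7 was at 255 and 115 CPM in regulatory cells, Lef1 at 324 and 264 CPM and Bach2 at 107 and 140 CPM, well below the naive levels above. Themis, which tunes T cell receptor signalling, was lower too, at 107 and 58.7 CPM against 481 and 473 CPM. Cd40lg was also lower, at 42.9 and 27.3 CPM against 285 and 173 CPM in naive cells.

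**Figure D3:**
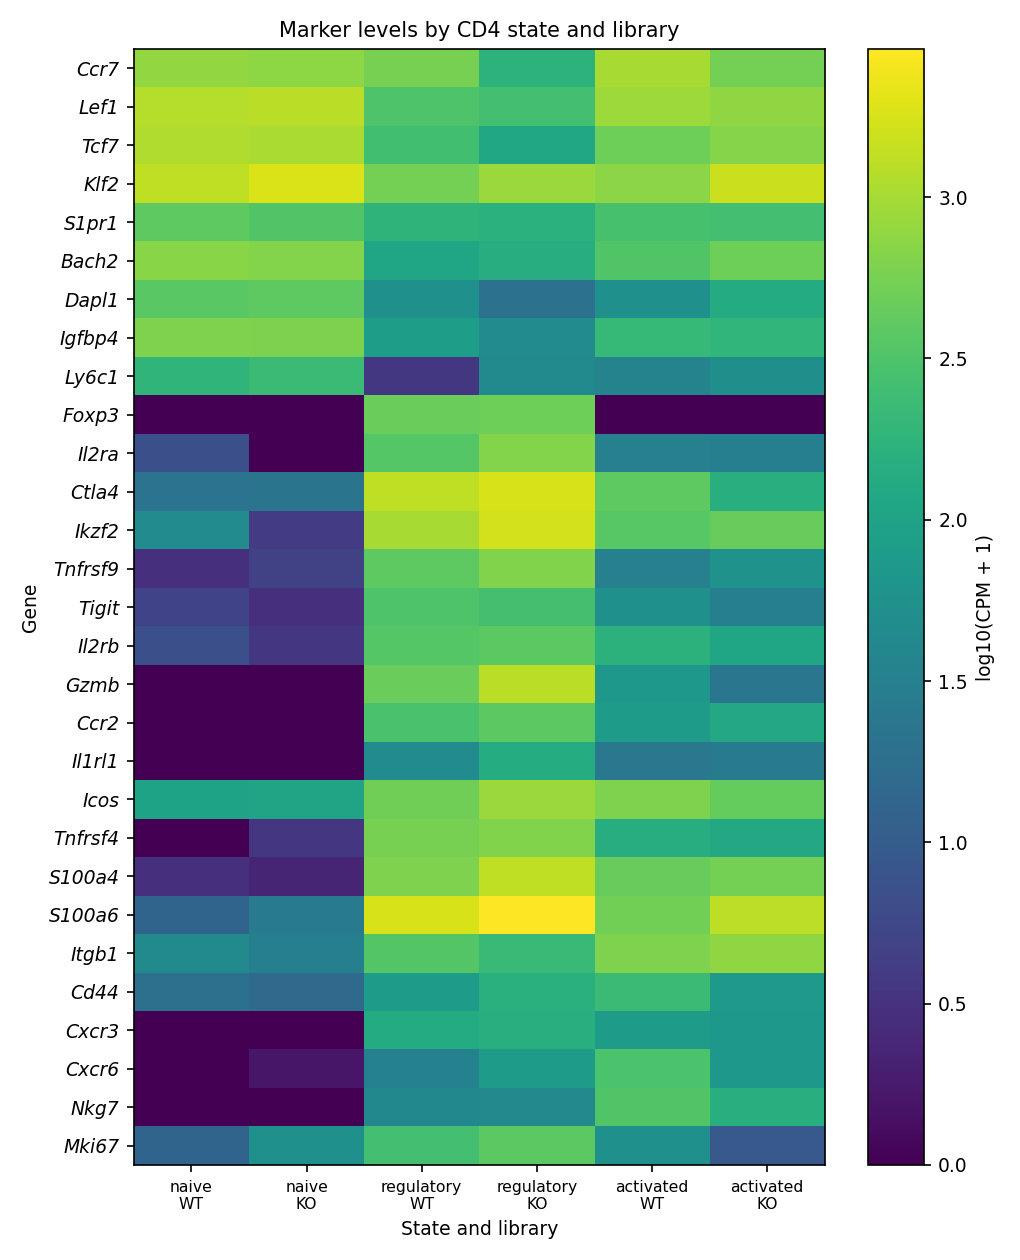
Summed level of 29 marker genes, as log10(CPM + 1), in naive, regulatory and activated CD4 cells of the WT and Lyve1 KO libraries. Each column is 1 state of 1 library with no replicate. Foxp3 is at 0 outside the regulatory columns by rule, and Gzmb and Ccr2 are at 0 in both naive columns.

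Transcripts of dividing cells were seen in a larger share of the regulatory than of the naive cells of each library. Mki67 or Top2a, genes of cycling cells, had a UMI in 8 of 15 WT and 14 of 25 KO regulatory cells, in 6 of 46 and 27 of 125 naive cells, and in 12 of 27 and 7 of 22 activated cells. Depth was not equal across these groups, with medians of 20064 and 13140 UMIs in regulatory cells and 11822.5 and 12581 in naive cells. At 4900 UMIs Mki67 was found in 33.3% and 30.4% of regulatory, 2.63% and 3.36% of naive, and 16.7% and 0% of activated cells, the last being 0 of 22 cells with an upper limit of 15.4%. Of 8 cell cycle genes with enough UMIs, 6 were higher in regulatory than in naive cells in both libraries, where 5.81% of all genes compared were, namely Mki67, Top2a, Stmn1, Hmgb2, Mcm5 and Rrm2, of which Mki67, Mcm5 and Rrm2 met the minimum only with the regulatory cells.

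Regulatory cells also differed in some survival and cytokine genes. Of all genes compared, 5.81% were higher than in naive cells in both libraries and 3.48% were lower. Bcl2, the survival factor of resting lymphocytes, was at 83.1 and 62.9 CPM in regulatory against 594 and 350 CPM in naive cells. Bcl2l1, which encodes its relative BCL-XL, was the other way, at 29.5 and 71.3 CPM against 5.94 and 10.7 CPM. Pmaip1, which acts in apoptosis, was also higher, at 45.6 and 83.8 CPM against 11.9 and 4.40 CPM. Both Bcl2l1 and Pmaip1 are scarce in naive cells and met the minimum only with the regulatory cells. Of 12 survival genes compared, 3 were higher, 1 was lower and 8 lay within the fold, with list medians of 0.11 and 0.17. Among 12 cytokine and receptor genes with enough UMIs, Ifngr1 was higher, as were Il2ra and Il2rb, which are scarce in naive cells, and Il6ra and Tgfbr2 lower. Of 11 interferon response genes, Ifi27l2a, Gbp2 and Ly6a were higher, Ly6a at 413 and 1157 CPM against 98.9 and 92.4 CPM. Il1rl1, which encodes the receptor of the alarmin interleukin-33, had 17 UMIs in 4 WT cells and 65 UMIs in 12 KO regulatory cells and none in naive cells. It was the 1 of 4 helper lineage genes compared that was higher, and with no UMI in naive cells it was compared only because of the regulatory cells.

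Transcripts of the repair list were led by Ccl5 and Tgfb1. Its 10 genes summed to 815 CPM in WT and 528 CPM in KO regulatory cells, and 10 of 15 and 15 of 25 of these cells had at least 3 UMIs of it. The list was not particular to regulatory cells. It summed to 680 and 476 CPM in activated cells and to 1089 and 1687 CPM in CD8 cells. Most of the CD8 sum was Ccl5, at 970 and 1565 CPM. Ccl5, a chemokine of effector T cells, was at 381 and 247 CPM, in 5 and 8 regulatory cells, with 1 UMI in the naive cells of each library. Areg, the epidermal growth factor receptor ligand that regulatory cells make in injured tissue, had 35 UMIs in the WT library, all in 1 regulatory cell, and 4 UMIs in 2 KO members. Il10, an anti-inflammatory cytokine, had 42 UMIs in 3 WT regulatory cells and 3 UMIs in 3 KO regulatory cells. So few cells with Areg or Il10 cannot rank the libraries. Of the 10 genes of that list only Tgfb1 and Ccl5 could be compared between libraries, and 0 of the 2 passed a log2 ratio of 1. Tgfb1, the main transforming growth factor gene of T cells, was at 145 and 218 CPM in regulatory cells and 139 and 118 CPM in naive cells.

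Activated cells were compared with naive cells in the same way. Against them, 89 genes (1.44% of 6201) were higher in both libraries and 22 (0.355%) lower. Of the activation list, 9 of 14 genes with enough UMIs were higher, of which Icos, Tnfrsf4, Cxcr6, S100a4 and Maf belong to the rule and Cd44, S100a6, Itgb1 and Lgals1 do not. Only Icos, Itgb1 and Lgals1 reached the minimum of UMIs in naive cells alone. Cd44 was at 227 and 71.2 CPM in activated cells. Itgb1, an integrin chain for binding matrix, was at 610 and 758 CPM against 43.5 and 30.2 CPM in naive cells. Lgals1 was at 760 and 955 CPM against 142 and 153 CPM. Of the regulatory list 8 of 10 genes were higher too. Of these, Tnfrsf4 and Icos belong to the rule for the state and Ctla4, Ikzf2, Tnfrsf18, Capg, Nrp1 and Il2rb do not. Only Icos and Capg reached the minimum of UMIs in naive cells alone, so this count too is a description. Ctla4 was at 399 and 151 CPM and Ikzf2 at 361 and 446 CPM, although by rule no activated cell had a Foxp3 UMI.

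Naive genes were less far apart than in regulatory cells. In activated cells 3 of 14 naive genes were lower, Dapl1, Igfbp4 and Ly6c1. Ly6c1 was at 34.6 and 52.0 CPM. Ccr7 was at 1021 and 547 CPM, against 799 and 733 CPM in naive cells. The cut between the states was a matter of degree, since 13 WT and 15 KO members had exactly 2 of the 8 genes and 28 and 70 had exactly 1. When 3 genes were asked for, a change made after the data were seen, activated cells were 15.7% of WT and 5.81% of KO members.

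Of the helper lineage list, receptors and transcription factors were common in activated cells and cytokines were few. The list summed to 914 and 594 CPM in activated cells, and 19 of 27 WT and 18 of 22 KO cells had at least 3 UMIs of it. Stat4, which passes on the interleukin-12 signal, led it at 269 and 164 CPM, in 16 and 18 cells, and was at 160 and 188 CPM in naive cells. Gata3, a factor of type 2 helper cells, was in 15 and 12 activated cells, and Cxcr3, which the rule used, in 8 and 7. Gata3 was not particular to activated cells, since 51 of all 89 WT members had a UMI of it. Of 3 genes of the list that could be compared with naive cells, none was past the fold. Ifng, the cytokine of type 1 helper cells, had 24 UMIs in 4 of 27 WT and 12 UMIs in 2 of 22 KO activated cells. Il13, a type 2 cytokine, had 26 UMIs in 5 WT and 2 UMIs in 1 KO activated cell. Il4 and Il17a had no UMI in WT members, and in KO members 4 UMIs in 3 cells and 6 UMIs in 2 cells. Cxcr6, a chemokine receptor of tissue-resident T cells, was at 303 and 68.4 CPM, from 10 and 6 activated cells. Zbtb16, the factor of innate-like T cells, was seen in 3 WT and 1 KO members, and Trav11 and Trav1, the variable segments of invariant natural killer T and mucosal-associated invariant T cells, in none.

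CD4 cells of the 2 libraries were alike in most genes. Of 7151 genes with at least 50 UMIs over the members and a UMI in at least 10 members of a library, 52 (0.727%) had a KO over WT log2 ratio of at least 1 in size, 19 higher (0.266%) and 33 lower (0.461%). The median over all genes was -0.01. The libraries also differed in the mix of states, so the ratios of the named genes are also given in naive cells alone. None of the 20 T cell identity genes, the 8 CD4 lineage genes or the 14 naive genes compared was past the fold, and the naive genes had a median of 0.30. Of the activation list 3 of 16 were lower in the KO library, Pdcd1, Cxcr6 and Tnfsf11, with a list median of -0.46. Of the regulatory list 1 of 17 was lower, Lrrc32. In the remaining biological lists Cd24a was higher (1 of 12 immature genes), Nkg7 was lower (1 of 2 innate-like genes) and Ccnb2 was lower (1 of 10 cell cycle genes), while none of 11 interferon, 12 survival, 13 trafficking, 14 maturity, 3 thymocyte, 12 cytokine, 6 helper lineage or 2 repair genes was past it.

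Lyve1 itself had 4 UMIs in 3 WT and 13 UMIs in 10 KO members. In KO regulatory cells it was at 21.0 CPM, in 7 of 25 cells, while WT regulatory cells had no UMI of it. These few counts in cells not known to use the gene do not check the knockout, and a 5′ library may still read transcripts of a disrupted gene. Cd44, the other hyaluronan receptor asked about, was at 85.9 CPM (98 UMIs) in WT and 51.0 CPM (124 UMIs) in KO members.

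The gene with the lowest ratio was Trim12a, a tripartite motif gene with close copies beside it in the genome, so that its count rests on how reads were assigned among them. It had 119 UMIs in 49 of 89 WT members, 104 CPM (86.4 to 125), and none in 172 KO members, at least 84.6-fold lower with 3 UMIs as the limit for a count of 0. Cln3, which encodes a lysosomal membrane protein, was at 49.95 CPM (37.8 to 64.7) in 36 WT and 6.57 CPM (3.76 to 10.7) in 15 KO members. Gdpd3, a lysophospholipase D gene, was the reverse, with 1 UMI in the WT and 75 UMIs in 35 KO members, a 35.2-fold ratio with a counting interval of 6.12 to 1407. All 3 lie on chromosome 7, as does Lyve1 (110850607 to 110863239, GRCm38), Trim12a at 104299894 to 104315466, Cln3 at 126571207 to 126585817 and Gdpd3 at 126766334 to 126775649. Chromosome 7 held 6.90% of the 7147 genes compared that have a position and 9 of the 52 past the fold (17.3%). The other 6 were Apoe, Hbb-bs, Lrrc32 and Nkg7, lower in the KO library, and Slco3a1 and Plekha7, higher and named after their values were seen. With 1 library per genotype, strain differences on the chromosome of the Lyve1 allele cannot be told apart from the knockout itself in these genes. In naive cells alone the log2 ratios were -3.91 for Trim12a, -1.93 for Cln3 and 1.60 for Gdpd3.

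The other 9 genes named as higher in KO members included receptor segments, a spindle protein gene and histone genes. Trbv16 and Trbv26, variable segments of the T cell receptor beta chain, were at 13.1 and 105 CPM and at 14.9 and 92.5 CPM. The WT counts of Trbv26 all came from 1 cell. Such a segment is carried by few cells, here 14 KO cells with Trbv16 and 13 with Trbv26. In naive cells alone the log2 ratios were 1.88 and 3.62. Nusap1, a spindle protein gene, and the histone genes Hist1h4d, Hist1h2ai and Hist1h3e had log2 ratios of 1.32, 1.29, 1.25 and 1.18, and the WT cell with the most counts gave 48.6% of those of Hist1h4d and 62.5% of those of Nusap1. Hist1h4d was at 124 CPM (105 to 147) and 320 CPM (298 to 343), with a UMI in 37 WT and 112 KO members. The cell cycle list summed to 1960 CPM in WT and 1959 CPM in KO members. In naive cells alone the log2 ratios of Nusap1, Hist1h4d, Hist1h2ai and Hist1h3e were 1.81, 1.61, 1.36 and 1.32. The histone ratios lay between 2.13 and 2.19 in male cells, but in female cells they were 0.46, 0.19 and 0.34 and not past the fold. With means of per-cell CPM Nusap1 (0.60) and Hist1h3e (0.75) were not past it either. Klrg1, an inhibitory receptor of differentiated T cells, was at 57.0 and 154 CPM in 8 and 17 cells, and Rsad2, an antiviral interferon-induced gene, at 7.01 and 34.1 CPM in 3 and 11 cells. In naive cells alone their log2 ratios were 0.09 and 0.14, and in male cells 0.79 and 0.92. Klrg1 also fell just short of the fold without the deepest member of each library (0.99), and Rsad2 without the members rich in macrophage transcripts (0.97). Cd24a, with 3 and 47 UMIs, had a ratio of 7.35 and a counting interval of 2.36 to 36.9. Its log2 ratio was 1.21 over all members, 0.95 in naive and 0.73 in female cells, and 0.96 with means of per-cell CPM.

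The other 8 genes named as lower in KO members included genes known from other cell types. Hbb-bs, an adult beta globin of red cells, was at 85.0 and 8.63 CPM, and 56.7% of its WT counts came from 1 cell. Its log2 ratio was -2.35 over all members and -3.25 in naive cells alone. Apoe was at 37.7 CPM in 15 WT cells and 4.52 CPM in 7 KO cells, with a log2 ratio of -1.72 over all members and -0.50 in naive cells alone. Without the members rich in macrophage transcripts the ratio was -0.44, but Apoe is itself one of the genes by which those members were left out. Lgals3, at 159 and 45.6 CPM, and Bcl2a1d, at 71.9 and 16.8 CPM, were lower over all members but had log2 ratios of 0.045 and 0.70 in naive cells alone. Bcl2a1d has close copies among which reads could be split. Lrrc32, which displays latent transforming growth factor on regulatory cells, was at 52.6 and 10.7 CPM in 11 cells of each library. Tnfsf11, which encodes the cytokine RANKL, was at 61.3 and 13.97 CPM in 24 and 21 cells. In naive cells alone the log2 ratios were -0.26 for Lrrc32 and -0.57 for Tnfsf11. Lgals3 (-0.74) and Lrrc32 (-0.94) were not past the fold in female cells, nor Tnfsf11 (-0.84) in male cells. mt-Nd3, a mitochondrial gene, was at 128 and 33.3 CPM, and Rell1 at 80.6 and 22.2 CPM, both lower also in naive cells, by log2 ratios of -1.94 and -2.07.

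**Figure D4:**
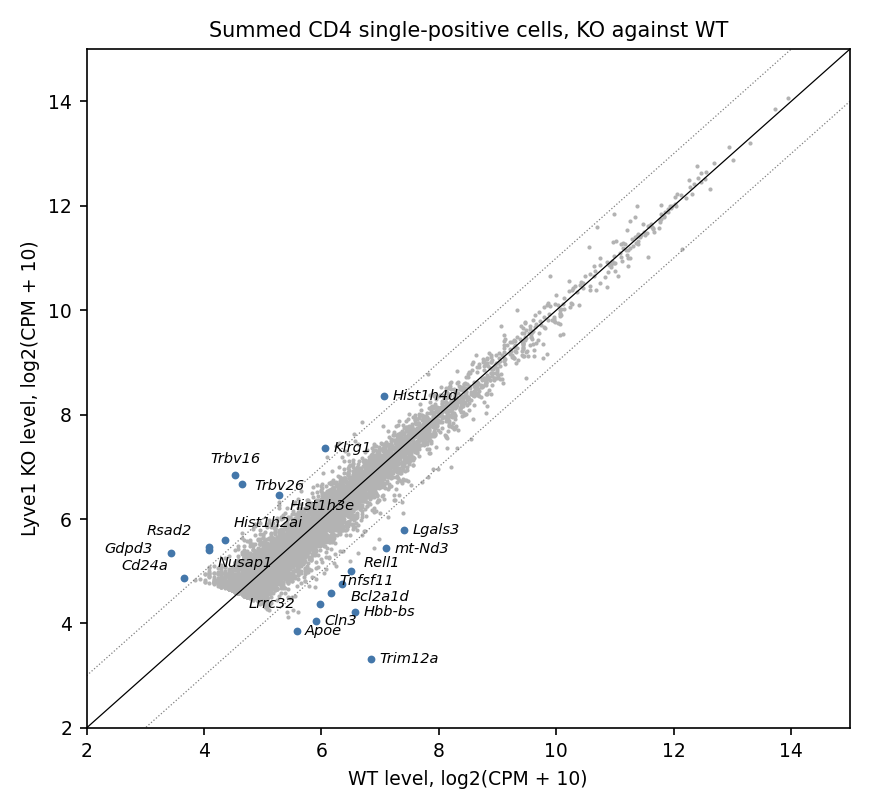
Summed level of each of 7151 genes in CD4 single-positive cells, as log2(CPM + 10), in the WT library (horizontal) and the Lyve1 KO library (vertical). Each point is a gene, the solid line marks equal levels and the dotted lines a log2 ratio of 1 in size, past which 52 genes lay. The 20 named genes are in blue, and Trim12a is the farthest below the line, with 119 UMIs in the WT and none in the KO library.

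CD4 and CD8 cells of the same library came from the same hearts and share any library-wide difference. Against CD8 cells, 127 genes (1.49% of 8537) were higher in CD4 cells in both libraries and 81 (0.949%) were lower. Beside Cd4 itself, which the rule used, the 10 highest were led by Tnfrsf4 (OX40) at 219 and 143 CPM against 2.16 and 0.496 CPM, and by Cd40lg. Il2ra, Foxp3, Ctla4 and Frmd5 are genes of the regulatory cells that the CD4 class holds, and 15 of the 18 regulatory genes were higher. Of these 15, only Ctla4, Ikzf2, Tnfrsf18, Capg, Izumo1r and Icos reached the minimum of UMIs in CD8 cells alone, so the count is a description. Ly6c1 and St8sia6, a sialyltransferase gene, marked other CD4 cells, Ly6c1 at 88.5 and 164 CPM against 1.08 and 8.93 CPM and St8sia6 at 96.4 and 129 CPM with 2 and 4 UMIs in CD8 cells. Rln3, a relaxin hormone gene, was counted at 124 and 138 CPM in CD4 cells. It lies next to Il27ra on the same strand, and whether its reads came from that neighbour was not tested.

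The 10 genes lowest in CD4 cells were Cd8b1 and Cd8a, which the rule used, Gm44174, which lies between them on chromosome 6, and genes of cytotoxic cells. Gzma, a granzyme, was at 11.4 and 2.05 CPM in CD4 against 394 and 165 CPM in CD8 cells. Nkg7, a cytotoxic granule protein gene, was at 88.5 and 30.8 CPM against 712 and 635 CPM. Eomes, a factor of memory and killer cells, had 1 and 2 UMIs in CD4 cells and 98 and 141 in CD8 cells. Klrd1 and Klrc1, the partner chains of an inhibitory receptor for MHC class I, and Ly6c2 were also among them, with Cd163l1. Ly6c1 and Ly6c2 are close copies among which reads could be split. Runx3, which fixes the CD8 fate, was at 76.2 and 57.9 CPM against 191 and 237 CPM. Cd5, whose level follows the strength of self-recognition, was higher in CD4 cells at 437 and 382 CPM against 178 and 173 CPM, the only 1 of the 20 T cell identity genes past the fold.

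Of the 14 naive genes 3 were higher in CD4 than in CD8 cells in both libraries, Dapl1, Igfbp4 and Ly6c1, where 1.49% of all genes compared were. Ly6c1, with 1 and 18 UMIs in CD8 cells, met the minimum only with the CD4 cells, so this count too is a description. The other 11 lay within the fold, among them Lef1, which stood at 828 and 994 CPM in CD4 against 754 and 807 CPM in CD8 cells. The interferon genes Isg20, Ifi27l2a and Ly6a were higher, and no cell cycle or survival gene of 12 each was past the fold. Among genes of other cell types, Pecam1, an adhesion gene of endothelium that T cells also carry, was at 239 and 271 CPM in CD4 cells against 99.3 and 123 CPM in CD8 cells, past the fold in both libraries. Cd74, the MHC class II invariant chain, was at 46.4 and 66.2 CPM against 6.48 and 3.97 CPM and was past it too. Few CD4 cells carried it, 15 of 89 in the WT and 26 of 172 in the KO library. It was at 138 CPM in WT activated cells (8 of 27 cells), and in the KO library at 69.8 CPM in naive (10 of 125) and 96.4 CPM in regulatory cells (13 of 25).

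**Figure D5:**
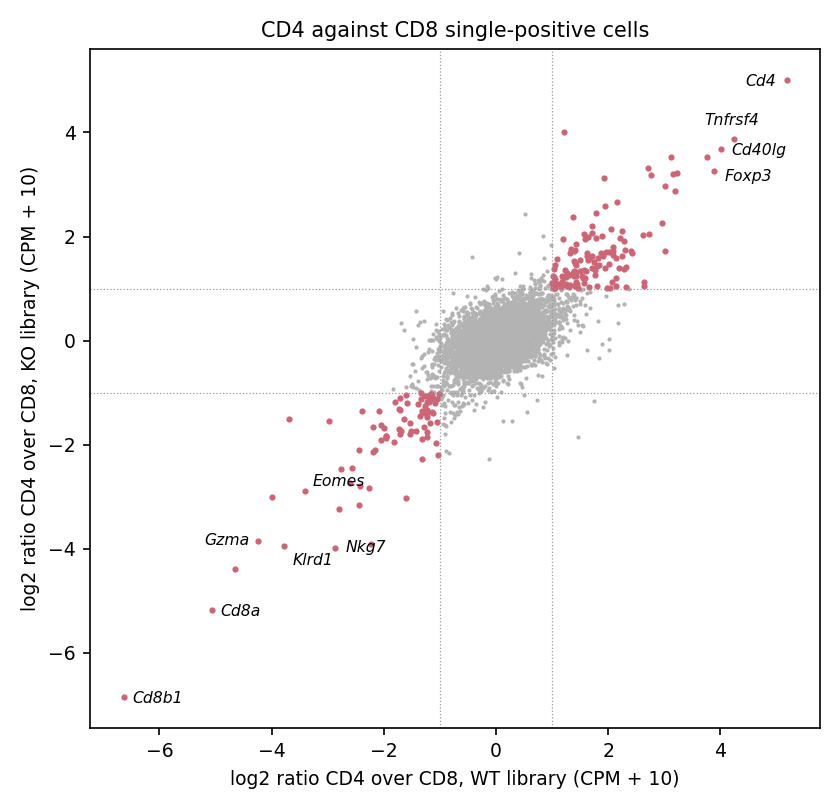
Log2 ratio of CD4 over CD8 single-positive cells (CPM + 10) for 8537 genes, in the WT library (horizontal) and the Lyve1 KO library (vertical). Each point is a gene, and red points are the 127 genes higher and 81 lower by a log2 ratio of at least 1 in both libraries. Cd4, Cd8a and Cd8b1 were used to pick the cells.

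Transcripts of other cell types were low in CD4 cells. The 12 macrophage genes summed to 117 CPM in WT and 25.1 CPM in KO members, with Fcgr1 at 0 in both. The 8 B cell genes summed to 272 and 251 CPM, of which Ighm, the immunoglobulin mu heavy chain, made up 235 and 242 CPM, in 57 and 135 cells. Ms4a1, Igkc and Pax5 were at 0 in KO members. Ighm was also in CD8 cells, at 180 and 172 CPM. Neutrophil genes summed to 8.76 and 7.81 CPM and cardiomyocyte genes to 2.63 and 2.88 CPM. The natural killer list summed to 278 and 289 CPM, led by Gzmb at 169 and 249 CPM, with Ncr1 and Klra8 at 0. The dendritic cell list, at 57.0 and 101 CPM, was led by Cd74, and Clec9a and Siglech were at 0. The stromal and endothelial list, at 242 and 344 CPM, was led by Pecam1 at 239 and 271 CPM, with Cdh5 and Kdr at 0. Most of the rest in KO members was Col1a1 (63 UMIs in 3 cells), Col3a1 (65 UMIs in 1 cell) and Dcn (37 UMIs in 1 cell), genes of fibroblasts. Red cell genes summed to 103 and 9.86 CPM. Macrophage and red cell RNA were thus higher in WT members. Without the members that had at least 3 macrophage UMIs, 50 of the 52 genes past the fold between libraries were still past it, of 69 in all. Macrophage UMIs of the other members stayed in, so the part of macrophage RNA was not tested, nor was that of red cell RNA.

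Many variable segments of the T cell receptor beta chain were seen among the members. Of 35 Trbv genes in the table, 20 had a UMI in WT and 21 in KO members, and 83 of 89 and 169 of 172 members had a UMI of at least 1 of them. Only 42 WT and 83 KO members had exactly 1 Trbv gene, and the others with a UMI had several, so a segment seen in a cell need not be the one its receptor uses. Trbv12-2 was found in the most cells, 25 WT and 65 KO. Gene counts do not give the rearranged sequence, so clones cannot be told from cells that share a segment.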

How the data were processed

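Live CD45+ cells of 1 pooled library per genotype were profiled with 10x 5′ chemistry. The authors deposited filtered UMI counts per gene and barcode (counts, not normalized), made with Cell Ranger (version 8.0.1 in the submitters' processing notes) on mm10/GRCm38. Depth was 67968938 (WT) and 61555917 UMIs (KO). Members and lists were chosen with earlier results of these data known.

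Counts were summed over the cells of a class in each library, scaled to CPM, and compared as log2 ratios of CPM + 10 over genes with at least 50 UMIs and a UMI in at least 10 cells of a library. Past the fold means a log2 ratio of at least 1, in both libraries for comparisons of states or lineages. Levels have exact Poisson, shares Clopper-Pearson and differences of shares Newcombe intervals at 95%. UMIs count molecules, and intervals cover counting error only. No p-value was computed. Between classes a 0 was set to a limit of 3 counts per library. Cells were thinned to 4900 UMIs, the 10th percentile of members rounded down to a multiple of 100. Male cells had a Y-linked UMI and no Xist, female cells the reverse, and 6 WT and 1 KO members had both. The fold comparison, tested on simulated data (KO over WT, 7095 genes), found 168 of 170 changed genes and none of 6925 unchanged ones. That simulation planted ratios well past the fold and drew all cells from the same mean profile with counting error only. It held no mix of states and no single cell rich in a gene, so it cannot vouch for the calls in the real data.

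Named genes were the genes of the rule, Cd40lg, Lef1, Tcf7, Lyve1 and Cd44, the 10 highest and 10 lowest of KO over WT with the same sign in male and female cells, the 10 highest and 10 lowest of CD4 over CD8, the 15 highest of regulatory over naive (by the smaller ratio of both libraries), and members of 24 lists, of which some are not reported here. Il13, Cxcr6, Gata3, Slco3a1, Plekha7 and the Trbv12-2 count were named after their values were seen. Doublets were kept. Scrublet (in scanpy 1.11.5) called 1 WT and 0 KO barcodes by its own threshold, so the highest 2.29% and 2.12% of scores were left out as an alternative, which took 1 WT and 4 KO members. Positions came from GENCODE vM21, of the same build. The analysis used Python 3.11.15, numpy 2.4.6 and scipy 1.17.1. The study's assignment of cells to hearts rests on reads and was not used here.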

Additional observations from a re-analysis of the deposited data

Results flagged for a closer look

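The regulatory share of CD4 cells differed in direction between the sexes. Among male cells it was 17.5% in the WT and 13.1% in the KO library, a difference of -4.37 points, and among female cells 20.0% and 22.2%, a difference of 2.22 points. Both intervals span 0, and the difference between the sexes was not tested. The counts are 7 of 40 and 13 of 99 male and 5 of 25 and 10 of 45 female cells.

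The activated share of barcodes also differed in direction between the sexes. Among male cells it was 0.693% in the WT and 1.17% in the KO library, a difference of 0.475 points, and among female cells 0.651% and 0.551%, a difference of -0.101 points. Both intervals span 0 (-0.189 to 1.25 and -0.926 to 0.712 points), and the difference between the sexes was not tested.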

How the results depend on the processing

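With 1 library per genotype there is no replicate to leave out. No paired analysis was possible because each genotype has 1 library. The CD4 share was higher in the KO library by 5.09 points in male and 2.24 points in female cells alone, outside the counting interval over all cells. The regulatory share, within counting error in all cells, reversed in female cells (2.22 points). As a share of barcodes, naive cells were higher by 1.78 points in female cells alone, under the counting interval over all cells. The activated share of barcodes, level between the libraries (-0.0043 points), changed sign to 0.475 points in male cells, 0.0714 with 2 Cd4 UMIs or with 5 CD3 UMIs, 0.0050 with limits of 500 genes and 30% mitochondrial UMIs, and 0.144 without members rich in macrophage transcripts. The interval of the regulatory share of barcodes spanned 0 with 2 Cd4 UMIs (0.236 points), in female cells (0.558) and without members rich in macrophage transcripts (0.387). In the other alternatives run, these shares and those of the CD3-positive cells kept their direction and stayed inside the counting interval of the main value. The 52 genes past the fold between libraries became 168 with 1 CPM added, 105 without the filter on low counts, 95 with means of per-cell CPM, 82 without the highest doublet scores, 201 in male, 270 in female and 115 in naive cells. Of the 52, these settings shared 52 (1 CPM), 39 (per-cell means), 47 (doublets out), 41 (male), 25 (female) and 21 (naive). CD4 over CD8 gave 221 higher and 144 lower genes with 1 CPM added. Regulatory over naive gave 589 higher genes without the filter, and 346 lower with 1 CPM added and 136 with per-cell means. Activated over naive gave 174 higher and 40 lower genes without the filter, and 70 lower with 1 CPM added and 34 with per-cell means. In naive cells alone 2 named ratios reversed, Bcl2a1d (0.70) and Lgals3 (0.045). The cause was not tested. The 3 alternatives that follow or are named in the text were added after seeing the data. Without members of at least 3 macrophage UMIs the activated difference was -14.1 points, and without the deepest member of each library, which held 5.72% and 2.64% of the UMIs, -17.8 points.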

Other observations

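The thymocyte-like cells beside the CD4 cells were a like share of both libraries, 1.39% and 1.41% of barcodes within the limits. Of CD3-positive T cells they were 17.2% and 8.63%, a difference of -8.59 points (-14.004 to -3.605). They were not of like sex. In the WT library 36 were female and 7 male, and in the KO library 1 was female and 30 were male, whereas CD4 members were 25 female and 40 male, and 45 and 99. Over all barcodes within the limits, 921 were female and 1875 male in the WT and 908 and 1370 in the KO library.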
